A study of Mus musculus with 20 samples.

Results

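The distal stretch of mouse chromosome 8, from position 48580000 (build mm9, per the array's probe coordinates) to its end, was described across 10 pluripotent cell lines. The array carries 1906 probes in the stretch, and 1458 of them were kept because 4 or more of the 20 arrays had them well above background, of 38750 that did so in the whole series. The other 448 probes of the stretch did not reach that level and are not described. The kept probes lie between 48589599 and 131269877. They stand for 858 named genes and, through 430 probes that carry only a position as their name, for noncoding transcripts. The stretch and the pair of lines contrasted here, Nanog-GFP OSKM#2 and Oct4-GFP ESCs, were chosen from these same expression values. Their differences from the other lines are therefore given as descriptions, with no test.

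The lines were 3 of embryonic stem cells (ESCs) and 7 of induced pluripotent stem cells (iPSCs), made from somatic cells by forced expression of transcription factors, and the total RNA of each was hybridised to 2 Agilent arrays in 1 colour. The labels class the iPSC lines by quality and by the factors that reprogrammed them, either OSKM (Oct4, Sox2, Klf4, Myc) or the set SNEL, which stands for Sall4, Nanog, Esrrb and Lin28. Poor quality was given to KH2_OSKM and to the lines Nanog-GFP OSKM#2 and Oct4-GFP OSKM#2, whose names carry a fluorescent reporter. Good quality was given to BC_2 OSKM and Nanog-GFP SNEL#3, and high quality to Nanog-GFP SNEL#2 and Oct4-GFP SNEL#1. Oct4-GFP ESCs, Nanog-GFP ESCs and KH2 ESCs were the embryonic lines. All cells were kept untreated in 2i medium with no feeder layer, and the labels do not explain the names KH2 and BC_2. They also do not say whether a line's arrays stand for separate cultures, so their spread may be technical, and each class rests on 2, 3 or 4 lines.

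All 10 markers of pluripotent cells were above background on all 20 arrays, with a summed level of 9.61 to 9.91 across lines. Of 10 fibroblast markers only 2 were above background on all 20 arrays, and their summed level ran from 0.39 in Nanog-GFP SNEL#3 to 3.51 in KH2 ESCs, with 0.92 in Nanog-GFP OSKM#2 and 2.65 in Oct4-GFP ESCs. Its part in the results was not tested. The share of all probes well above background was 48.9% to 77.2% per array, with line means of 62.6% in Nanog-GFP OSKM#2, 65.9% in Oct4-GFP ESCs and 50.1% to 67.7% in the other lines.

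Chromosome 8 of the mouse carries a gene-dense distal arm with many housekeeping genes of translation, transcription, replication and respiration, beside clusters whose genes are switched on in particular tissues, such as the Iroquois homeobox genes, the metallothioneins and a row of cadherins. Gain of this chromosome is a well-known event in cultured mouse embryonic stem cells. A change in the number of copies of a chromosome is generally known to move the RNA of many of its genes the same way by a small amount, while genes under strong feedback or with variable expression follow it less. Copy number was not measured in these samples.

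Promoter sequences of 4 genes are shown because the report turns on which genes of the stretch were higher in the pair of lines and which were not. Sin3b (scaffold of a histone deacetylase corepressor) and Aars (alanyl-tRNA synthetase) were the 2 brightest protein-coding genes with a promoter window whose arrays lay above those of all 8 other lines in both Nanog-GFP OSKM#2 and Oct4-GFP ESCs. Cyba (the p22-phox subunit of NADPH oxidase) and Ndrg4 (a member of the N-myc downstream-regulated family) were the 2 brightest with a window that lay at or below the median of all lines in both. Each run is the 250 bases before the RefSeq transcription start, 5′ to 3′ on the gene's strand, from build GRCm38.p6, with every CG dinucleotide in capitals. Those of Sin3b (chr8:72723020-72723269, plus strand), Aars (chr8:111033592-111033841, plus strand), Cyba (chr8:122432941-122433190, minus strand) and Ndrg4 (chr8:95676724-95676973, plus strand, the first listed of 4 starts) were:
Sin3b: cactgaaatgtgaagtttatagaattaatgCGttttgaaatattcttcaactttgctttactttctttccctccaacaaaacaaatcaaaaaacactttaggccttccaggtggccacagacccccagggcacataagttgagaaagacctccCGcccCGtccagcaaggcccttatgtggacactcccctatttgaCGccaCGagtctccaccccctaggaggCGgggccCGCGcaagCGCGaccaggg
Aars: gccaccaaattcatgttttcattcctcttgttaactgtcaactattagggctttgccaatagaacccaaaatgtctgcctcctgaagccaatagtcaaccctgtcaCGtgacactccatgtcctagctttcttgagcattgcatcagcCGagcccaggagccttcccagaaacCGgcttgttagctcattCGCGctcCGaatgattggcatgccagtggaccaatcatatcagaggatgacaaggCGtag
Cyba: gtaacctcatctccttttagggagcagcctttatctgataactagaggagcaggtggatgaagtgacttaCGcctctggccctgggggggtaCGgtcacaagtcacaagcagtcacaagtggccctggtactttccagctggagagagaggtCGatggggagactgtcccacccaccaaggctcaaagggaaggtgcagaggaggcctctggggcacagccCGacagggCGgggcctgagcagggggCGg
Ndrg4: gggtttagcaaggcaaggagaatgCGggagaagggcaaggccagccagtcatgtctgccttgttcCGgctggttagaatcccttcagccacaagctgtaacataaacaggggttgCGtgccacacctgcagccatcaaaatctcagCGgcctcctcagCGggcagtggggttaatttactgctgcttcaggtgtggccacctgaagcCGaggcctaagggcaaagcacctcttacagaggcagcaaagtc
Sin3b held 10 CG dinucleotides in these 250 bases, Aars 7, Cyba 6 and Ndrg4 6. The GC box GGGCGG, searched on both strands, had 1 match in Sin3b and 2 in Cyba, and none in Aars or Ndrg4. A GC box was found in 35.7% of all 32851 RefSeq promoter windows of 300 bases (250 before and 50 after the start).

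Levels below are log2 signals minus the log2 of each array's 75th percentile, and the difference of a line is its mean level minus the median of all 10 lines, also in log2. Sin3b stood at 7.15 and 6.89 on the arrays of Nanog-GFP OSKM#2 and at 6.89 and 6.71 on those of Oct4-GFP ESCs. The 16 arrays of the 8 other lines ran from 6.36 to 6.68 with a median of 6.47. All 4 arrays of the pair were thus above all others for Sin3b. Aars stood at 6.57 and 6.49 in Nanog-GFP OSKM#2 and at 6.29 and 6.07 in Oct4-GFP ESCs, against 5.49 to 6.07 (median 5.95) on the other arrays, so that the lower array of Oct4-GFP ESCs was only just above them. Cyba stood at 4.51 and 4.45 in Nanog-GFP OSKM#2 and at 5.20 and 5.04 in Oct4-GFP ESCs, within the 4.31 to 6.61 (median 5.61) of the other arrays. Ndrg4 stood at 1.82 and 1.77 in Nanog-GFP OSKM#2 and at 1.94 and 2.04 in Oct4-GFP ESCs, also within the others' range of 1.36 to 2.64.

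Over the 1458 probes the median difference was 0.195 in Oct4-GFP ESCs (arrays 0.187 and 0.193) and 0.154 in Nanog-GFP OSKM#2 (arrays 0.196 and 0.132). The other lines lay lower. KH2 ESCs had 0.033, KH2_OSKM 0.020, Nanog-GFP SNEL#3 0.012, Nanog-GFP SNEL#2 −0.004, Oct4-GFP OSKM#2 −0.026, Nanog-GFP ESCs −0.086, BC_2 OSKM −0.099 and Oct4-GFP SNEL#1 −0.143. The arrays of the pair did not overlap with those of any other line, the nearest being an array of KH2_OSKM at 0.101. Off chromosome 8 the medians were −0.026 in Nanog-GFP OSKM#2 and 0.047 in Oct4-GFP ESCs, so that the stretch stood 0.180 and 0.149 above the rest of the genome in these lines and between −0.074 and 0.003 from it in the other 8. No other chromosome had a median above 0.003 in Nanog-GFP OSKM#2 or above 0.091 in Oct4-GFP ESCs.

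**Figure D1:**
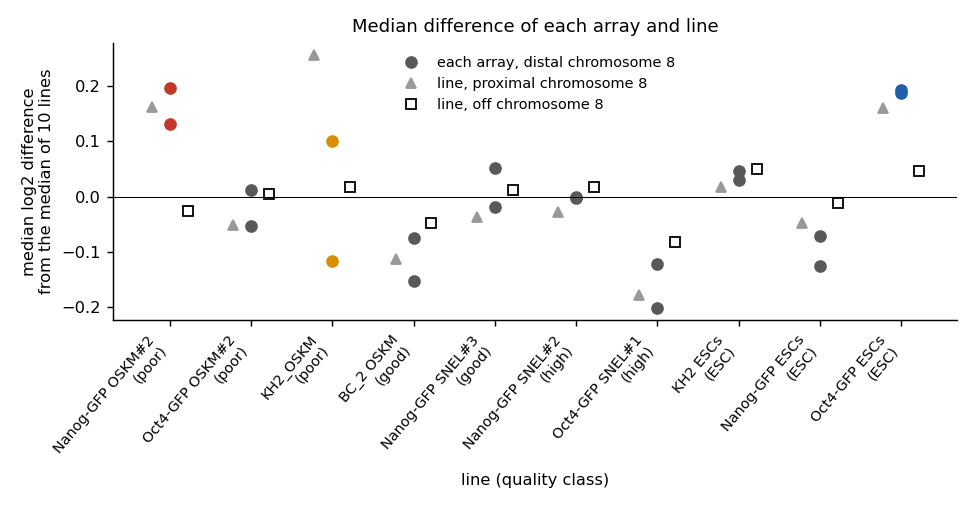
Median log2 difference from the median of 10 lines for each of the 2 arrays of a line over distal chromosome 8 (filled circles), with the line's median over proximal chromosome 8 (triangles) and off chromosome 8 (open squares), and the quality class in brackets. The arrays of Nanog-GFP OSKM#2 (0.196 and 0.132) and Oct4-GFP ESCs (0.187 and 0.193) lie above the other lines, and KH2_OSKM has 0.256 on the proximal side and 0.020 over the whole stretch.

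Higher values were also found on the proximal side of the chromosome, where 649 probes gave a median of 0.162 in Nanog-GFP OSKM#2 and 0.161 in Oct4-GFP ESCs, beside 0.154 and 0.195 on the distal side. The genes around the start showed no step that both lines shared. Just inside, Rwdd4a had differences of −0.34 in Nanog-GFP OSKM#2 and 0.20 in Oct4-GFP ESCs, Ing2 (a reader of methylated histone H3) 0.30 and 0.46, the noncoding AA386476 0.50 and 1.05, and ENSMUST00000120987 −0.15 and 0.96. Just outside, Trappc11 (a subunit of a vesicle tethering complex) had 0.29 and 0.23, Stox2 0.60 and 0.00, and the dim Irf2, above background on 6 arrays, −0.74 and −0.13.

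Counted probe by probe, 513 of the 1458 (35.2%) had a difference of at least 0.32 in Nanog-GFP OSKM#2, where the same held for 15.0% of the 36278 probes off chromosome 8. In Oct4-GFP ESCs 486 (33.3%) were, beside 22.5% off the chromosome. A difference of −0.32 or lower was found for 190 (13%, beside 18.3%) in Nanog-GFP OSKM#2 and 133 (9.12%, beside 13.4%) in Oct4-GFP ESCs. Both arrays of Nanog-GFP OSKM#2 lay above all 16 arrays of the other 8 lines for 259 probes (17.8%, beside 3.49% off the chromosome) and below them for 29 (1.99%, beside 4.51%). For Oct4-GFP ESCs both arrays lay above for 159 probes (10.9%, beside 1.97%) and below for 1 (0.0686%, beside 1.36%). On the proximal side both arrays lay above for 11.7% of probes in Nanog-GFP OSKM#2 and 4.62% in Oct4-GFP ESCs.

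Along the stretch the higher values were spread over many genes and were uneven. In bins of 10 Mb the median of Oct4-GFP ESCs stayed between 0.120 (60 to 70 Mb) and 0.252 (110 to 120 Mb). With the median of off-chromosome-8 probes of similar level subtracted, it ran from −0.002 to 0.193 in the same bins. From 60 to 70 Mb this line was thus no higher than in the rest of the genome. The median of Nanog-GFP OSKM#2, with nothing subtracted, was 0.012 up to 60 Mb (90 probes), 0.256 from 60 to 70 Mb, and between 0.122 and 0.233 from there to 120 Mb. It was 0.078 from 120 to 130 Mb and 0.646 over the last 7 probes. In the 7 lines other than these and KH2_OSKM, the bins before the last ran no higher than 0.060. In 141 overlapping windows of 101 neighbouring probes, Oct4-GFP ESCs was above 0 in 141 and Nanog-GFP OSKM#2 in 134. Of the other lines, KH2 ESCs was above 0 in 121, Nanog-GFP SNEL#3 in 83, KH2_OSKM in 75 and the rest in 0 to 56. These counts do not allow for each line's level in the rest of the genome. Off chromosome 8 the medians were 0.047 in Oct4-GFP ESCs, −0.026 in Nanog-GFP OSKM#2 and 0.051 in KH2 ESCs. The median of KH2 ESCs over the stretch, 0.033, was thus below its level elsewhere. The highest of the 10 lines was Oct4-GFP ESCs in 66 windows, Nanog-GFP OSKM#2 in 50 and KH2_OSKM in 25.

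**Figure D2:**
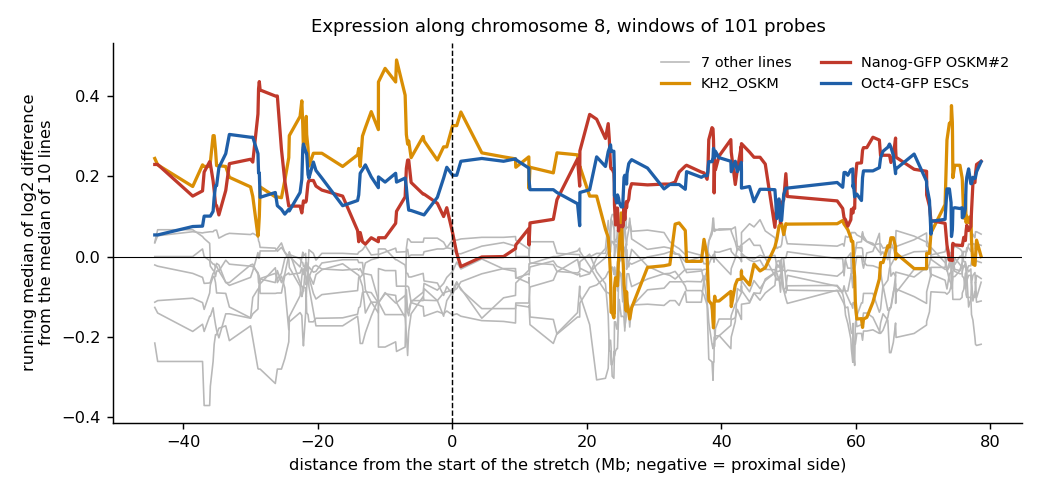
Running median of the log2 difference from the median of 10 lines along chromosome 8, in windows of 101 probes moved by 10, against the distance in Mb from the start of the stretch (dashed line). Nanog-GFP OSKM#2 and Oct4-GFP ESCs run above 0 on both sides of the start for nearly the whole chromosome, while KH2_OSKM runs high on the proximal side and into the stretch, mostly near or below 0 after that, and high again (up to 0.377) near 74 Mb from the start.

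From 120 to 125 Mb the difference was small. There the median over 148 probes was −0.002 in Nanog-GFP OSKM#2 (arrays 0.041 and −0.046) and 0.091 in Oct4-GFP ESCs (arrays 0.078 and 0.136). With off-chromosome-8 probes of similar level subtracted, these medians were 0.032 and 0.003. This window, chosen after the values were seen, held 39 protein-coding genes on all 20 arrays, whose medians were 0.02 and 0.06. The next 58 such genes, from 125 to 130 Mb, had medians of 0.23 and 0.22.

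KH2_OSKM was high over some parts of the chromosome. Its median was 0.256 on the proximal side, 0.249 over the 159 probes from the start to 70 Mb, and −0.010 over the 1299 probes from there to the end, with the split set after the values were seen. Beyond 70 Mb it was high again from 120 to 125 Mb, with a median of 0.317 over 148 probes (arrays 0.412 and 0.052). Its arrays also differed nearer the start (0.464 and 0.061 up to 70 Mb), and its dim probes were high across the genome, with a median of 0.45 in the dimmest of 5 groups of level off chromosome 8. Among probes on all 20 arrays its arrays agreed more closely, at 0.182 and 0.178 up to 70 Mb (90 probes, median 0.127) and at −0.103 and −0.141 beyond it (867 probes, median −0.116). A difference of at least 0.32 was found for 447 of the 1458 probes (30.7%, beside 28.7% off the chromosome), and one of −0.32 or lower for 322 (22.1%, beside 19.5%).

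Genes of basic cell functions were mostly higher in both lines, as were most well-measured protein-coding genes of the stretch. Over all 858 genes, each through its brightest probe, the median difference was 0.148 in Nanog-GFP OSKM#2 and 0.181 in Oct4-GFP ESCs. Of these genes 68.2% and 74.6% were above 0, where 44.8% and 59.5% of probes off chromosome 8 were. Among the 498 protein-coding genes on all 20 arrays the shares above 0 were 76.7% and 81.7%. The counts of genes above 0 in the lists below stand beside these shares, and several lists lay near the latter. No list was tested against them. Of 17 genes of translation and RNA processing, 17 were above 0 in Nanog-GFP OSKM#2 (median 0.35) and 15 in Oct4-GFP ESCs (median 0.25). Besides Aars, the list held Kars (lysyl-tRNA synthetase), at 6.54 and 6.41 in Nanog-GFP OSKM#2 and 6.15 and 6.11 in Oct4-GFP ESCs, against 5.64 to 6.17 (median 5.93) on the other arrays. Only the arrays of Nanog-GFP OSKM#2 were above all others for it. Ints10 (a subunit of the Integrator complex) stood at 3.58 and 3.60 and at 3.42 and 3.42, all above the others' 2.99 to 3.19 (median 3.09). Nudt21 (a cleavage factor of mRNA 3′ ends) stood at 4.93 and 4.77 and at 4.72 and 4.71, all above the others' 4.11 to 4.59. Rpl13, a ribosomal protein gene and among the brightest members, had small differences of 0.07 and −0.04. Sf3b3 (a splicing factor subunit) stood at 6.69 and 6.58 in Nanog-GFP OSKM#2, above the 5.80 to 6.54 of the other 16 arrays, and at 6.50 and 6.28 in Oct4-GFP ESCs, inside it.

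Of 18 genes of replication and cell cycle, 16 were above 0 in Nanog-GFP OSKM#2 (median 0.24) and 18 in Oct4-GFP ESCs (median 0.22). Cdt1, which licenses replication origins, stood at 6.34 and 6.29 and at 6.38 and 6.44, high in the others' range of 5.74 to 6.38 (median 6.11) or just above it. Fanca, a core protein of the Fanconi anaemia repair pathway, stood at 3.83 and 3.84 and at 3.85 and 3.75, all above the others' 2.80 to 3.60. Orc6, a subunit of the origin recognition complex, had differences of 0.07 and 0.16. Gins3, of the replicative helicase, had −0.24 and 0.07, and it was 1 of 2 members of the list below 0 in Nanog-GFP OSKM#2.

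Of 25 chromatin and transcription regulators, 20 were above 0 in Nanog-GFP OSKM#2 (median 0.30) and 22 in Oct4-GFP ESCs (median 0.18). Brd7, a bromodomain subunit of a chromatin remodelling complex, stood at 5.41 and 5.35 in Nanog-GFP OSKM#2 and at 5.24 and 5.19 in Oct4-GFP ESCs. The other 16 arrays ran from 4.40 to 4.99 (median 4.66), so that both lines lay clear of them. Polr2c, a subunit of RNA polymerase II, stood at 6.12 and 6.05 and at 6.0 and 5.78 against 5.44 to 5.98, with 1 array of Oct4-GFP ESCs inside. Hmgb2, a DNA-bending protein, had differences of 0.07 and 0.06, and Ctcf, the insulator protein, −0.01 and 0.08.

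Of 10 genes of protein folding and degradation, 9 were above 0 in each line (medians 0.23 and 0.28). Mbtps1, the Golgi protease that releases membrane-bound transcription factors, stood at 5.20 and 5.19 and at 5.29 and 5.27, all above the others' 4.54 to 5.09 (median 4.92). Dnajb1, a co-chaperone of Hsp70, stood at 5.33 and 5.17 and at 5.43 and 5.38 against 4.81 to 5.24, with Oct4-GFP ESCs clear of the range. Calr, the calcium-binding chaperone calreticulin, had differences of 0.06 and −0.01.

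Of 20 genes of mitochondria and metabolism, 18 were above 0 in Nanog-GFP OSKM#2 (median 0.26) and 17 in Oct4-GFP ESCs (median 0.11). Ndufb7, a subunit of respiratory complex I, stood at 6.94 and 6.89 and at 6.78 and 6.56 against 6.09 to 6.69 (median 6.53). Cox4i1, of cytochrome c oxidase, stood at 8.0 and 7.92 and at 7.88 and 7.60 against 7.5 to 7.99. Ndufa13, also of complex I, had differences of 0.08 and 0.06. Only for Ndufb7 among these did both arrays of Nanog-GFP OSKM#2 lie above the range.

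Of 16 signalling genes, 10 were above 0 in Nanog-GFP OSKM#2 (median 0.25) and 12 in Oct4-GFP ESCs (median 0.18). Gab1, an adaptor of receptor tyrosine kinases, stood at 3.13 and 3.09 and at 2.72 and 2.66 against 2.00 to 2.75, high in Nanog-GFP OSKM#2 alone. Plcg2, a phospholipase C, had differences of 0.53 and −0.08, and Bcar1, a focal adhesion scaffold, 0.03 and 0.16. Of 7 genes of secreted ligands, 7 and 5 were above 0 (medians 0.30 and 0.12). Vegfc, a growth factor of lymphatic vessels, stood at 3.43 and 3.45 and at 3.07 and 3.04 against 1.83 to 3.27. Gdf15 had differences of 0.30 and 0.12. Gdf1, whose transcript is known to overlap that of a neighbouring gene so that its probe is uncertain, had 0.08 and 0.49.

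The lists of cadherins and of Iroquois and forkhead factors, known for tissue-restricted expression, had smaller medians than the lists above, and few genes. Of 7 cadherins, 3 were above 0 in Nanog-GFP OSKM#2 (median −0.08) and 4 in Oct4-GFP ESCs (median 0.02). Cdh1, the E-cadherin of epithelial and pluripotent cells, stood at 4.47 and 4.41 and at 4.28 and 4.57 against 4.02 to 4.49, mostly inside the others' range. Cdh3 had differences of 0.40 and −0.06, and Cdh11 of 1.31 and 0.02. Of 4 Iroquois and forkhead factors of embryonic patterning, 2 and 0 were above 0 (medians −0.12 and −0.29), with Irx3 at −0.58 and −0.09, Irx6 at 0.38 and −0.12 and Foxc2 at −0.27 and −0.47.

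The metallothioneins, small metal-binding proteins, were above 0 in 1 of 4 genes in Nanog-GFP OSKM#2 (median −0.06) and in 3 of 4 in Oct4-GFP ESCs (median 0.14). Mt1 stood at 8.26 and 8.26 and at 8.71 and 8.46 against 7.85 to 8.75 (median 8.39), and Mt2 at 8.44 and 8.31 and at 8.65 and 8.28 against 7.94 to 8.85. Both lay inside the range of the other lines. Mt3 stood at −0.25 and −0.23 and at 0.03 and 0.08 against −1.02 to −0.01, so that only Oct4-GFP ESCs was clear of it. Of 4 immediate-early and Kruppel-like factors, 3 and 2 were above 0 (medians 0.25 and 0.03). Klf2, a transcription factor of the naive pluripotent state, had differences of 0.01 and −0.01, and Jund, an AP-1 subunit, −0.39 and 0.06. Klf1, the erythroid Kruppel-like factor, stood at −1.88 and −1.86 in Nanog-GFP OSKM#2 and at −3.18 and −3.20 in Oct4-GFP ESCs against −4.82 to −3.01, far above the others in the first line.

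**Figure D3:**
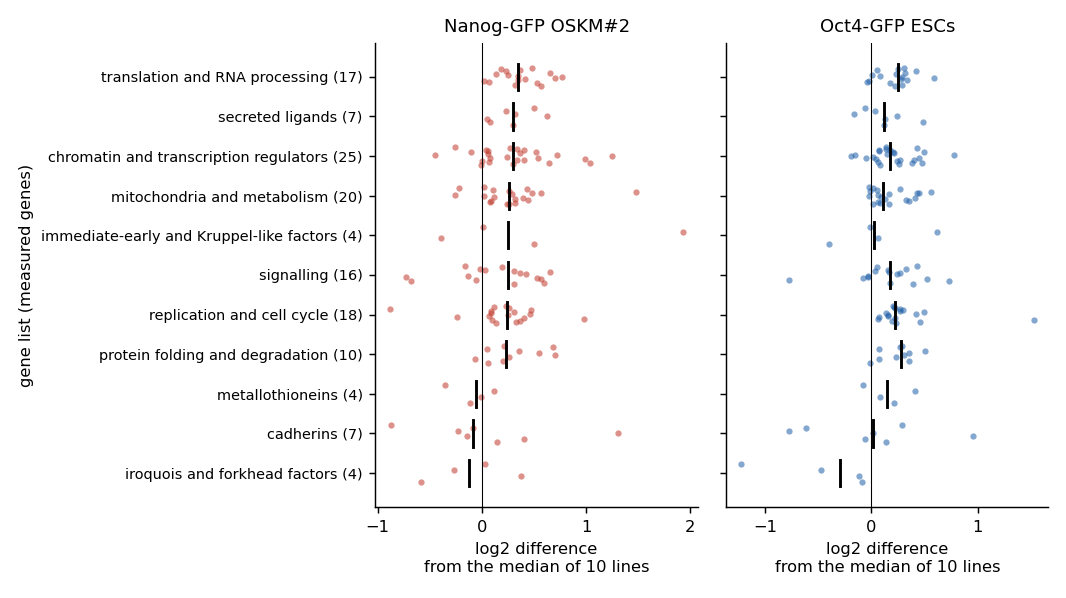
Log2 difference from the median of 10 lines for each measured gene (points) of 11 lists of genes in the stretch, in Nanog-GFP OSKM#2 (left) and Oct4-GFP ESCs (right), with the median of each list as a bar and the number of genes in brackets. The lists of translation and RNA processing (medians 0.35 and 0.25) and of chromatin regulators (0.30 and 0.18) lie mostly above 0, and the Iroquois and forkhead factors (−0.12 and −0.29) do not.

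The largest differences of single genes mostly belonged to 1 line of the pair. The 6 largest differences in Nanog-GFP OSKM#2, among genes clear of the 16 other arrays, ran from 1.91 to 4.82. The largest was that of Ushbp1, which encodes a binding partner of harmonin. It stood at 3.22 and 3.36 in Nanog-GFP OSKM#2, at −1.48 and −1.70 in Oct4-GFP ESCs and between −2.77 and −1.0 elsewhere. The others were 1700018B08Rik (3.9), Trim67 (2.55), the unnamed transcript XM_001476722 (2.35), Klf1 (1.93) and Clec18a (1.91). Several of these were dim, and the size of their difference moved with the background correction. On the 16 other arrays 1700018B08Rik was well above background on 9, Trim67 on 7 and Clec18a on 5, and with normexp their differences were 2.11, 0.99 and 0.61, and that of Klf1 1.14. In Oct4-GFP ESCs, whose differences for these genes other than Klf1 (0.62) lay between −0.21 and 0.04, the 6 largest were smaller and belonged to transcripts with no RefSeq protein-coding match. They were A130014A01Rik (1.69), 2900073C17Rik (1.47), C80012 (1.46), 1700001D01Rik (1.44), ENSMUST00000093049 (1.37) and ENSMUST00000110241 (1.30). Of these, 1700001D01Rik (1.06) and A130014A01Rik (0.66) also had high values in Nanog-GFP OSKM#2, and the other 4 lay between −0.38 and 0.35 there. Well above background on all 4 arrays of the pair and on 1 of the 16 others, 1700001D01Rik was kept only through the lines in which it was high. With normexp the differences after that of A130014A01Rik were 0.79, 0.62, 0.26, 0.52 and 0.39, in the same order.

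Genes with a difference at or below 0 in both lines, called escaping genes here, numbered 42 of the 639 genes on all 20 arrays (6.57%), beside 22.2% of such genes off chromosome 8. Of the 42, 22 were protein-coding by RefSeq, 14 had no RefSeq match, 4 were pseudogenes and 2 were other noncoding genes. The 8 brightest were Gm8842, Gm13464, Gm16406, Gm5351, Gm7191, Gm6921, LOC100045553 and Gm9892, with differences between −0.17 and −0.06 in Nanog-GFP OSKM#2 and between −0.14 and −0.01 in Oct4-GFP ESCs. Gm8842, for example, stood at 8.43 and 8.38 and at 8.57 and 8.34 against 8.30 to 8.82. RefSeq places Gm13464 on chromosome 2. Probes of pseudogenes can share sequence with near-identical copies elsewhere, so which locus gave their signal is uncertain.

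The protein-coding genes among the escaping ones made up 22 of 498 (4.42%) on all 20 arrays. Their 8 brightest, singled out after the values were seen, were Cyba, Cotl1, Ndrg4, Jak3, Zfpm1, Galnt7, Mef2b and Adad2. Cotl1, an actin-binding protein, stood at 3.48 and 3.25 and at 3.60 and 3.15 against 3.39 to 4.86 (median 3.78), at the low end of the other arrays. Jak3, a kinase of cytokine receptors, stood at 2.12 and 2.11 and at 1.49 and 1.32 against 1.12 to 2.52. Zfpm1, a cofactor of GATA factors, stood at 1.94 and 1.74 and at 1.12 and 1.01 against 0.63 to 2.71. For both, Oct4-GFP ESCs was the lower line of the pair. Galnt7, a glycosyltransferase, had differences of −0.35 and −0.01 and Mef2b, a MADS-box factor, −0.37 and −0.05. Adad2 had −1.11 and −0.06.

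Of the 22, 7 lay between 120 and 125 Mb, where 39 protein-coding genes were measured on all 20 arrays (17.9%). That window was chosen because its differences were small, so this count is only a description. They were Adad2, Cotl1, Crispld2, Irf8, Zfpm1, Cyba and Snai3. Another 7 lay between 70 and 80 Mb among 114 genes (6.14%), and none lay between 100 and 110 Mb among 69. Crispld2 had the lowest values of all, −2.01 and −1.51. The escaping genes also differed more among the lines outside the pair. A gene that varies more falls at or below the median more easily. Their definition thus favours such genes, and the ranges and groups that follow are only a description. The range of the 8 other lines had a median of 1.34 over the 22 and of 0.81 over the other 476. When the 498 genes were split into 3 groups by that range, the steadiest 166 had medians of 0.25 in Nanog-GFP OSKM#2 and 0.20 in Oct4-GFP ESCs with 85.5% and 91.0% of genes above 0. The most variable 166 had 0.15 and 0.09 with 69.9% and 66.9% above 0, and they held 15 of the 22.

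The difference also varied with the kind of transcript. The 767 probes of protein-coding genes had medians of 0.21 in Nanog-GFP OSKM#2 and 0.18 in Oct4-GFP ESCs, where protein-coding probes off chromosome 8 had −0.04 and 0.01. The 430 position-named noncoding probes had 0.13 and 0.21, beside 0.00 and 0.16 off the chromosome. The 26 pseudogene probes had −0.14 and 0.04, with 10 and 16 of them above 0, beside −0.07 and 0.03 for pseudogene probes off the chromosome. The first value was −0.05 with quantile normalization. A further 6 probes carry a position in the stretch but belong to genes that RefSeq puts elsewhere, among them Gapdh and Eif1, and their medians were −0.03 and 0.00.

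The difference from the rest of the genome was larger among well-measured probes. In the dimmest of 5 groups of mean level, probes of the stretch stood 0.10 above probes of the same level off chromosome 8 in Nanog-GFP OSKM#2 and 0.03 above them in Oct4-GFP ESCs. In the brightest group they stood 0.25 and 0.17 above. The share of probes above 0 went from 57.5% to 78.4% in the first line, beside 47.5% to 36.5% off the chromosome. In the second line it went from 67.5% to 83.2%, beside 62.4% to 54.7%. For 145 genes with several probes, the probes disagreed in sign for 38 genes in Nanog-GFP OSKM#2 and 32 in Oct4-GFP ESCs.

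**Figure D4:**
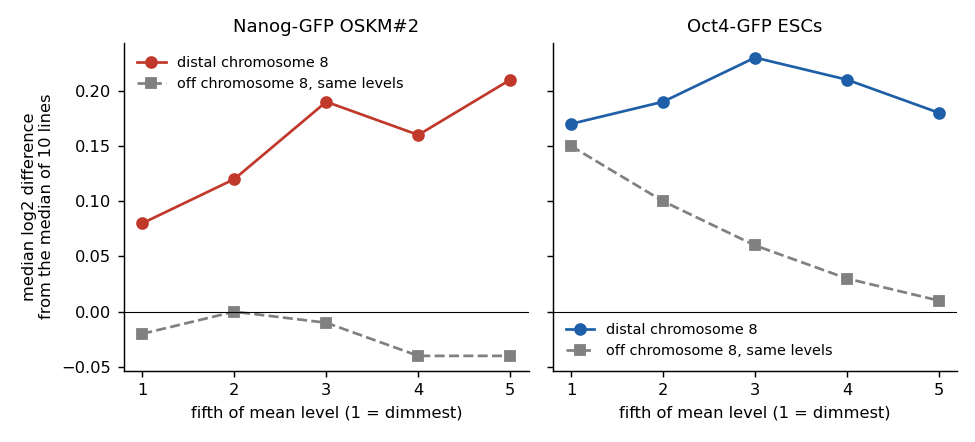
Median log2 difference from the median of 10 lines over probes of distal chromosome 8 (circles) and over probes off the chromosome with the same mean level (squares), in 5 groups from dimmest to brightest, for Nanog-GFP OSKM#2 (left) and Oct4-GFP ESCs (right). In the brightest group the stretch stands at 0.21 and 0.18, and the rest of the genome at −0.04 and 0.01.

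Promoters were compared for the 474 of 606 protein-coding genes with a RefSeq window. A window of 300 bases was called CpG-rich with at least 50% G and C and at least 0.6 of the CG dinucleotides that its base composition gives on average, which held for 33.5% of all windows. The 314 genes with CpG-rich windows had medians of 0.24 in Nanog-GFP OSKM#2 and 0.20 in Oct4-GFP ESCs, with 79.3% and 84.1% above 0. The 160 with CpG-poor windows had 0.12 and 0.08, with 58.8% and 63.7% above 0. Off chromosome 8 the CpG-rich genes had −0.04 and 0.01, with 40.6% and 54.2% above 0. The CpG-poor ones there had −0.02 and −0.01, with 46.1% and 48.9% above 0. Among genes on all 20 arrays the medians were 0.23 and 0.21 for 292 CpG-rich and 0.13 and 0.14 for 104 CpG-poor windows. The CpG-rich genes were also brighter, with a median level of 1.98 against −1.68, and of 2.18 against 1.0 on all 20 arrays. As the difference was larger for brighter probes, promoter kind and level are not separated here, and the part of each was not tested. Of the sequences shown above, that of Sin3b lies in a CpG-rich window, and those of Aars, Cyba and Ndrg4 do not. Genes with a GC box (301) had 0.21 and 0.19, and those without (173) had 0.23 and 0.13.

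To compare the lines of the pair gene by gene without shared samples, Nanog-GFP OSKM#2 was set against the other Nanog-GFP lines and Oct4-GFP ESCs against the other Oct4-GFP lines. Over the 858 genes the medians were 0.23 and 0.31, and off chromosome 8 they were −0.06 and 0.12 over probes. Of the genes, 458 (53.4%) were above 0 in both, beside 24.4% of probes off the chromosome. Across genes, which are not independent replicates, the differences hardly varied together, with r = −0.03 and a Spearman correlation of 0.04. Over probes off chromosome 8 these were −0.25 and −0.17. Among the 498 protein-coding genes on all 20 arrays, 325 (65.3%) were above 0 in both, and r was −0.11.

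**Figure D5:**
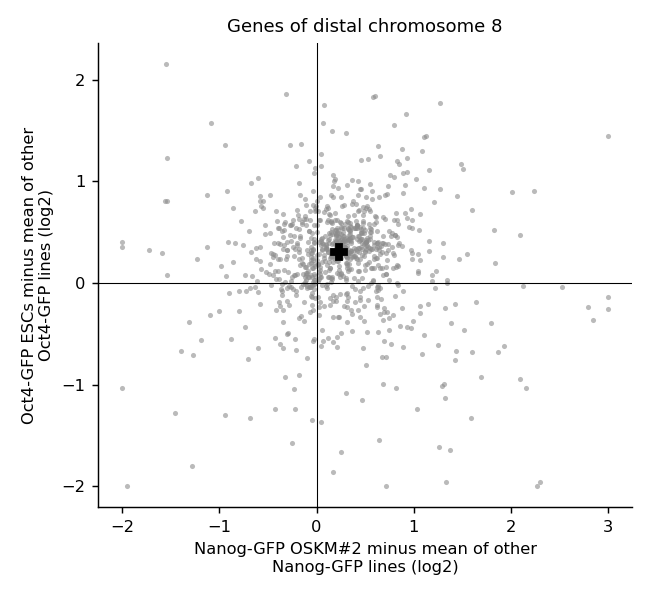
Each point is 1 of 858 genes of distal chromosome 8, with the log2 difference of Nanog-GFP OSKM#2 from the mean of the other Nanog-GFP lines (horizontal) and of Oct4-GFP ESCs from the mean of the other Oct4-GFP lines (vertical). The cross marks the medians (0.23 and 0.31), 458 genes lie at the upper right, r is −0.03, and 9 genes beyond −2 or 3 are drawn at these limits.

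The study's own groups were compared with limma on the 10 line means, with Benjamini-Hochberg adjustment over all 38750 probes. The question was whether the stretch differs by quality or by reprogramming factors when lines are the replicates. Between poor (3 lines) and ESC lines (3), 0 of the 1458 probes passed an adjusted p of 0.05 (0.0% of all probes), and 113 had an unadjusted p under 0.05 (7.75%), where 9.08% of all probes did. Each of these groups held 1 line of the pair, so that their higher values offset each other. The median was 0.002 over the stretch and −0.033 over all probes. Without Oct4-GFP ESCs it was 0.093 and −0.012, and without Nanog-GFP OSKM#2 −0.065 and −0.019. Between good and high (4 lines) and poor lines, 0 passed (0.0% of all probes) and 78 had an unadjusted p under 0.05 (5.35%), beside 5.31%, of which 74 were lower in the good and high lines. The median was −0.14 over the stretch and −0.03 over all probes, and without Nanog-GFP OSKM#2 it was −0.07 and −0.05. Between SNEL (3 lines) and OSKM lines (4), 0 passed (0.00516% of all probes) and 121 had an unadjusted p under 0.05 (8.3%), beside 9.4%. The share of such probes in the stretch was near or below that of the whole array in all 3 comparisons.

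Within a reporter background the stretch moved in opposite directions between OSKM and ESC lines, since the high line was the iPSC line in one and the ESC line in the other. The median of Nanog-GFP OSKM#2 minus Nanog-GFP ESCs was 0.317, between 0.260 and 0.385 for the 4 pairs of arrays. That of Oct4-GFP OSKM#2 minus Oct4-GFP ESCs was −0.234, between −0.265 and −0.180. That of KH2_OSKM minus KH2 ESCs was −0.019, between −0.179 and 0.093.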

How the data were processed

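Per the file headers, the deposited scanner files (array design 028005, mm9 coordinates) were made with Feature Extraction 10.1.1.1 and hold each spot's background-subtracted intensity. Per the labels, 300 ng of total RNA was hybridised. The deposited value table holds log2 values, read from their values as quantile normalized, and the submitters' processing notes name limma with no version. Its scale and direction follow the scanner signals, no centring of genes was seen, and it was used as an alternative.

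Control spots and outlier-flagged values were left out, repeated spots were averaged, and log2 processed signals were set relative to the 75th percentile of each array. A probe was kept if 4 or more of the 20 arrays had it well above background. Each line entered the fits as the mean of its 2 arrays, which lay on different slides of 3. All poor lines lay on slides 1 and 2, and each ESC line had an array on slide 3. Slide and class can thus not be told fully apart. The arrays' number limits the precision. Symbols came from RefSeq accessions (26525 probes matched) or, failing that, from the files. Groups were compared with limma 3.58.1 in R 4.3.3 on all probes, with Benjamini-Hochberg adjustment, and the fit was tested on simulated data.

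The stretch, the pair of lines and the gene lists were chosen with earlier results of these data known. Named genes were the 3 brightest of each list, the 6 largest differences per line clear of the other 16 arrays, the 8 brightest escaping genes, the 4 genes on each side of the start, and any gene past the limma threshold. Some of these are not reported here. Other genes are examples chosen after their values were seen. Promoters came from RefSeq's table (GRCm38.p6), whose coordinates are not those of mm9. Alternatives changed the normalization, background correction, filter, reference, slide, replicate and lines.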

Additional observations from a re-analysis of the deposited data

Results flagged for a closer look

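The median of the stretch in the OSKM line minus the ESC line was 0.317 within the Nanog-GFP lines and −0.234 within the Oct4-GFP lines, with every pair of arrays above 0 in the first and below 0 in the second. This difference between the backgrounds was not tested.

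Among the 4 OSKM lines, 3 of the 68 genes looked at had 1 line far from the others, as chance alone gives for about 1 in 20 such groups. The gap to the nearest line, as a part of the whole range, was 0.925 for Ushbp1, where Nanog-GFP OSKM#2 stood at 3.29 and the other 3 lines had a median of −1.20. It was 0.907 for Clec18a, with Nanog-GFP OSKM#2 at −3.90 against −5.31. Both genes were looked at because Nanog-GFP OSKM#2 was high for them, so this repeats their choice, and Clec18a was not well above background on either array of KH2_OSKM. The gap was 0.875 for Mt1, with BC_2 OSKM the lowest at 7.98 against 8.30.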

How the results depend on the processing

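The median of the stretch stayed above 0 in both lines under all 14 alternatives to the scaling, filter, reference, slide and replicates. In Nanog-GFP OSKM#2 (0.15) it moved by more than its arrays' SD with normexp and quantile normalization (0.10), no filter (0.06, when 3 other lines stood higher), the 8 other lines as reference (0.25) and protein-coding genes only (0.21, added after seeing the data). In Oct4-GFP ESCs (0.20), whose arrays differed by little, it was 0.17 with quantile normalization, 0.11 with normexp, 0.13 in the authors' table, 0.20 for probes on all 20 arrays, 0.10 with no filter, 0.19 for the brightest probe of each gene, 0.27 against the 8 other lines, and 0.17 to 0.21 without either replicate. Added after seeing the data were the off-chromosome-8 median or brightness-matched probes subtracted (0.15 each) and protein-coding genes (0.18). With the replicate block the values were 0.16 and 0.20. The count of probes with a difference of at least 0.32 in Oct4-GFP ESCs (486 of 1458, 33.3%) was 278 of 1458 with normexp. The share of such probes off chromosome 8 was also lower with normexp. Among the 957 probes on all 20 arrays the count was 294 (30.7%), so that this lower count mostly reflects the smaller set. Within slides, the pair's medians lay between 0.14 and 0.21, and no other array exceeded 0.06.

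Replicate numbers did not pair the arrays (45 pairs of lines, r from −0.10 to 0.47). In the limma comparisons 0 probes of the stretch passed in the main fits. For poor against ESC lines 1 passed (Snx20, adjusted p = 0.009 by limma) in the 20-array fit with line as random block, added after seeing the data, and 1 (Snx20, adjusted p = 0.0127) with the replicate block. For SNEL against OSKM lines 5 passed in that 20-array fit (Cdh11, Arv1, Slc7a6os, 2310022B05Rik and a noncoding probe at 59966828) and 1 (Slc7a6os) with the replicate block. Of all 38750 probes, 36 and 29 passed in these fits for poor against ESC lines, and 86 and 29 for SNEL against OSKM lines. Leaving out each line gave 0 to 13, with 13 (12 of them lower, Foxc2 among them) only without Oct4-GFP SNEL#1. Without that line 384 of all 38750 probes passed, a similar share. The genes of the stretch given here were named after their values were seen.

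Counts at an unadjusted p under 0.05 moved as follows. For poor against ESC lines (113, of which 52 were higher and 61 lower in poor lines) they were 62 on all 20 arrays (6.48%). Of all 24481 probes on all 20 arrays, 1909 were. With slide effects removed they were 46 (3.16%, beside 1645 of all 38750 probes), of which 37 were higher and 9 lower. The 20-array fits gave 59, 41 and 64 with line only, slide and replicate block, beside 2025, 1493 and 2136 of all probes. The count was 58 without both lines of the pair, beside 1685. For good and high against poor lines (78) they were 30 on all 20 arrays, beside 995 of 24481, and 52 to 118 without each line. The 118 (8.09%), without BC_2 OSKM, stood beside 3376 of all 38750 probes. The 52 (3.57%), without Nanog-GFP SNEL#3, stood beside 1830. For SNEL against OSKM lines (121) they were 78 on all 20 arrays, beside 2576 of 24481, and 68 to 202 without each line. They were 202 without Oct4-GFP SNEL#1 (13.9%, beside 7126 of all 38750 probes). Without Nanog-GFP SNEL#3 they were 68 (beside 2019) and without Nanog-GFP SNEL#2 75 (beside 2216). In each of the settings given here the count over all probes moved the same way as that of the stretch. The cause of these changes was not tested, other than that fewer probes were tested on all 20 arrays. Of the 952 values of named genes under alternatives, 622 moved by less than the SD of the line's arrays and none beyond ±0.32 changed sign. The 42 escaping genes kept 35, 35 and 33 of their number under quantile normalization, normexp and the authors' table.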
